A study of Mus musculus with 4 samples.

Results

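Within the heart section taken 7 days after cryoinjury, 48 of 774 spots held 3 or more UMIs (unique molecular identifiers, each standing for 1 captured RNA molecule) of the interferon-induced GTPase genes Igtp, Irgm2, Iigp1, Tgtp1 and Gbp6. These 48 spots, 6.20% of the section, were compared with the 580 spots that held 0 such UMIs, over all genes except those 5. The 146 spots with 1 to 2 such UMIs were in neither pool. The kept spots of the whole series numbered 3056.

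The study cooled the apex of the left ventricle of ICR mice with a probe for 5 seconds at postnatal day 1 and took hearts 1, 4, 7 and 14 days later, named d1, d4, d7 and d14. The mice were then at postnatal days 2, 5, 8 and 15, and every section came from a cryoinjured heart, with no genotype labelled. RNA was read on 10 µm sections with the 10x Genomics Visium assay, in which a spot is a small area that can hold several cells of different types. Each time point had 1 section, and cutting was continued until the injury could be seen. Spot positions were not used here, so nothing below gives a place in the heart, and no p-value is given because spots of 1 section are not replicates.

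Interferon gamma is a cytokine released mainly by T cells and natural killer (NK) cells. Its receptor works through the kinases JAK1 and JAK2, and the response runs through gamma-activated sites in DNA and induces factors such as IRF1. Known targets are the immunity-related GTPases and guanylate-binding proteins, which act on the vacuoles of intracellular parasites and bacteria, the immunoproteasome, and the MHC molecules that present peptides to T cells. Type I interferons, which act through receptors of their own, share many of these targets.

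Promoter windows of these genes are printed to show matches to the short cores of DNA elements known from interferon responses. The windows are RefSeq's (GRCm38.p6) and run from 250 bases before to 50 bases after each gene's start. Of the 5 genes that chose the spots, 3 have a window that can be shown. Each holds the core of a gamma-activated site, TTCNNNGAA, followed by that of an interferon-stimulated response element. The latter core is GAAA, any 2 bases and GAAA again. It begins 11 bases after the gamma-activated site core begins. Both cores were searched on either strand, and their matches may overlap. Gm12185, a predicted gene among the interferon-induced GTPases that did not choose the spots, has the same arrangement. Irgm1 and Gbp2, further GTPase genes, hold only the response element in their windows, and Irf1 and Psmb8 hold only the gamma-activated site. The 50-base stretches are 5′ to 3′ on the gene's strand, with the matched cores in capitals, and Gbp2 carries its core on the other strand.
Igtp, chr11:58199496-58199545, plus strand: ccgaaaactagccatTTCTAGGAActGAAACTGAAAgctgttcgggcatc
Irgm2, chr11:58214887-58214936, plus strand: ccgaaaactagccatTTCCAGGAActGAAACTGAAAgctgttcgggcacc
Tgtp1, chr11:48992300-48992349, minus strand: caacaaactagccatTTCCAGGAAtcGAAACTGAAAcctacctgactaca
Gm12185, chr11:48927234-48927283, minus strand: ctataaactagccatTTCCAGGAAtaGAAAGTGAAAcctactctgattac
Irgm1, chr11:48871431-48871480, minus strand: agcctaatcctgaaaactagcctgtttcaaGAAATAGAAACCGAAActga
Gbp2, chr3:142620583-142620632, plus strand: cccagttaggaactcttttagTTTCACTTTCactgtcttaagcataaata
Irf1, chr11:53769904-53769953, plus strand: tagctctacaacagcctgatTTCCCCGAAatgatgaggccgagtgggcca
Psmb8, chr17:34198075-34198124, plus strand: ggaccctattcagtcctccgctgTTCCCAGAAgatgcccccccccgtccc

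The gamma-activated site began 45 bases before the start of Igtp, 75 before that of Irgm2, 88 before that of Tgtp1 and 86 before that of Gm12185. A gamma-activated site core followed by a response element core, with starts 11 bases apart, was in 5 of the 32851 windows (0.0152%), counting either strand. These were the windows of Igtp, Irgm2, Tgtp1, Tgtp2 and Gm12185. These genes are close relatives, and the flanking letters of the first 4 sequences are alike too. Capitals mark letters that match, which does not show that a factor binds there.

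The 5 GTPase genes had 654 UMIs in the d7 section, and 485 of them (74.2%) were in the 48 chosen spots. A chosen spot held from 3 to 29 of them, with a median of 8. At the threshold, 6 spots with exactly 3 such UMIs were in and 23 spots with 2 were out. Igtp had 197 UMIs in 45 of the 48 spots, Iigp1 137 in 39, Gbp6 57 in 31, Irgm2 55 in 30 and Tgtp1 39 in 18. Most chosen spots did not rest on a single gene: 2 spots held UMIs of 1 of the 5 genes, 9 of 2, 15 of 3, 12 of 4 and 10 of all 5. As a description only, since the 5 genes were picked together and each choice by 4 of them lies within the 48 spots, the level of the gene left out was higher where the other 4 chose the spots, 38.0-fold for Igtp, 12.5-fold for Irgm2, 41.6-fold for Iigp1, 86.5-fold for Tgtp1 and 24.3-fold for Gbp6. The annotated bodies of Igtp and Irgm2 overlap on the same strand, so their counts may not be fully separate.

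The chosen spots carried ventricular muscle genes at levels close to those of the other spots. Of every 10000 UMIs, a median of 926.6 came from the ventricular cardiomyocyte list in the chosen spots and 902.9 in the spots with 0, with ranges of 622.5 to 1011 and 132.5 to 1119. The chosen spots were deeper, with a median of 11339.5 UMIs against 7854, and a deep spot reaches 3 UMIs more easily. Their median mitochondrial share was 12.6% against 11.4%. Levels below are CPM, UMIs per 1000000 UMIs of the pool without haemoglobin and mitochondrially encoded genes, over 457352 UMIs in the chosen spots and 4033142 in the spots with 0.

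Across all 10743 genes with 20 or more UMIs, 161 (1.5%) were higher in the chosen spots and 258 (2.4%) were lower. A gene counted as higher at a ratio of at least 2, and as lower at a ratio of at most 0.5, where the exact 95% interval for counting error left out 1. Of the 161 higher genes, 44 belonged to the 7 interferon lists, which had 69 measured members, and these took 30 of the 50 highest ratios. The median log2 ratio of all measured genes was -0.09. Since the spots were chosen on genes of this response, the values below describe them and test nothing. Some genes, such as Nlrc5, H2-Q6 and Cd74, reached 20 UMIs only with those in the chosen spots. They had 3, 4 and 11 UMIs in the spots with 0, so this minimum can raise the counts of higher genes.

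Of the 18 other interferon-induced GTPase genes in the matrix, 8 reached 20 UMIs and these 8 were higher, although a gene seen mainly in the chosen spots could pass the minimum through them alone. The summed level of all 18 was 542 CPM in the chosen spots and 38.9 CPM in the spots with 0, a ratio of 13.9 (95% interval 11.4 to 17.1). Irgm1, which regulates the other immunity-related GTPases, had 63 UMIs in 30 of the 48 spots and 22 UMIs in 22 of the 580, a ratio of 25.3 (15.3 to 43.1). No spot of the 580 held more than 1 Irgm1 UMI, while 18 chosen spots did. Gbp2 was 14.2-fold, Gbp4 8.82-fold, Gbp3 8.30-fold, Gbp7 7.64-fold and Gbp9 3.84-fold higher. The predicted GTPase genes Gm12185 and F830016B08Rik had 32 and 27 UMIs in the chosen spots and 2 and 3 in the spots with 0. The annotated body of Gm12185 overlaps that of Tgtp1 on the same strand, so its counts may not be separate from those of a gene that chose the spots. Reads of such near-identical relatives, of the class I genes below and of the Ccl21 copies can be split between copies by the counting, so single values among them are uncertain.

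In the signalling list, Irf1 and Irf8 stood apart from the receptor and its kinases. Irf1, a factor induced by interferon gamma, was 5.80-fold higher (3.36 to 9.86), and Irf8, a factor of myeloid cells, 4.13-fold (2.59 to 6.47). The receptor chains were called neither way, with ratios of 1.57 (1.11 to 2.18) for Ifngr1 and 0.892 (0.677 to 1.16) for Ifngr2, as were Jak1 at 0.857 (0.539 to 1.31) and Jak2 at 1.297 (0.595 to 2.53). Ifng, the ligand, had 0 UMIs in the whole section, and in the chosen spots a count of 0 allows up to 6.56 CPM. Socs1, a feedback inhibitor, had 0 UMIs in the chosen spots and 18 in the larger pool of spots with 0. The interval of its ratio, 0 to 2.01, includes 1, so no direction can be given.

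**Figure D1:**
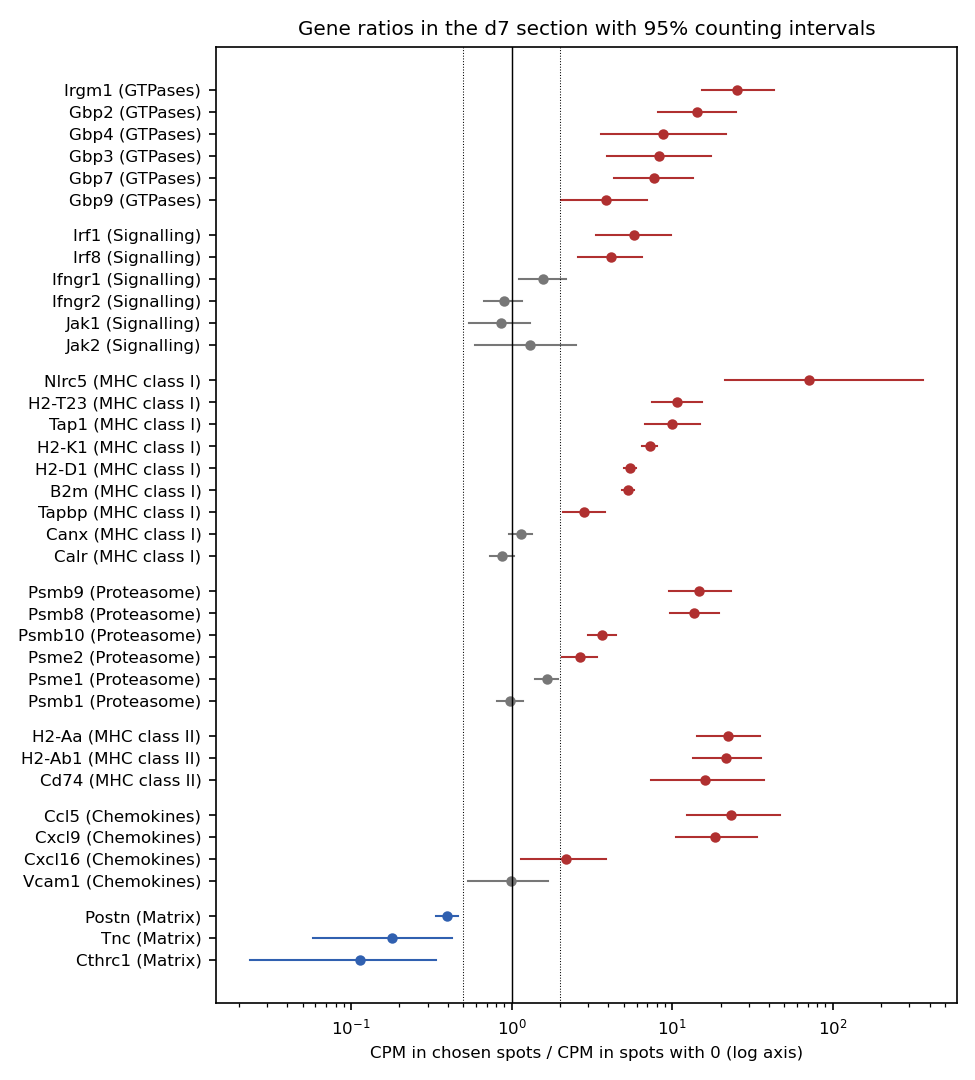
Ratio of CPM in the 48 chosen spots to CPM in the 580 spots with 0, on a log axis, with 95% counting intervals for single genes grouped by role, and dotted lines at 0.5 and 2. Red points are called higher, blue lower and grey neither: Irf1 and Irf8 lie right of the dotted line while Ifngr2, Jak1 and Jak2 lie about 1.

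In sum, genes better known from the type I response were higher by less than the other GTPases, but not by less than the signalling list. Of 21 measured, 10 were higher and 0 lower, and the summed ratio was 2.32 (2.11 to 2.55). That of the signalling list was 1.96 (1.77 to 2.17). Isg15, a ubiquitin-like modifier, was 9.50-fold and Irf7, a factor of type I interferon induction, 8.82-fold higher, each from 20 UMIs or fewer in the chosen spots. Bst2, which tethers budding viruses, was 3.89-fold and Ifitm3, which blocks viral entry, 2.03-fold higher. The receptor chains Ifnar1 and Ifnar2 had ratios of 0.994 and 1.10. Which interferon acted was not tested.

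Antigen presentation by MHC class I was higher in heavy and light chains, peptide transport and loading, but not in general chaperones. Of 16 measured genes 13 were higher and 0 lower, with a summed ratio of 3.58 (3.42 to 3.73). Nlrc5, the transactivator of class I genes, had 24 UMIs in 13 chosen spots and 3 UMIs in 2 of the others, 70.6-fold (21.4 to 366). H2-K1, a classical class I heavy chain, stood at 1301 CPM against 180 CPM, 7.23-fold (6.47 to 8.07), and B2m, the light chain, at 1780 CPM against 337 CPM, 5.28-fold. H2-D1 was 5.47-fold and the non-classical H2-T23 10.7-fold higher. The peptide transporter genes Tap1 and Tap2 were 10.0-fold and 5.82-fold higher, and Tapbp, which bridges transporter and class I, 2.83-fold. H2-Q6, with 17 UMIs against 4, was 37.5-fold higher (12.2 to 153), a call that 7 of 23 alternatives ended. The general folding factors of the endoplasmic reticulum in the same list had ratios of 0.872 for Calr, 0.947 for Pdia3 and 1.14 for Canx, and none was called.

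The proteasome showed the same split between inducible and standing subunits. The inducible catalytic subunits Psmb9, Psmb8 and Psmb10 were 14.8-fold, 13.7-fold and 3.64-fold higher, and the activator subunit Psme2 2.65-fold. Psme1, the partner of Psme2, had a ratio of 1.65 (1.40 to 1.94), under the 2-fold limit. Of 16 constitutive proteasome genes, 0 were called in either direction, with a summed ratio of 1.03 (0.978 to 1.09).

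MHC class II, which professional antigen-presenting cells carry and interferon gamma induces in other cells, was 16.3-fold higher in sum (12.7 to 21.03), with 3 of 3 measured genes higher. The list had 10 genes, and the rest stayed under 20 UMIs. Cd74 reached that minimum only with its 20 UMIs in the chosen spots, beside 11 in the others. H2-Aa had 73 UMIs in 24 chosen spots and 29 UMIs in 24 of the others, 22.2-fold (14.3 to 35.4). H2-Ab1 was 21.7-fold and the invariant chain Cd74 16.0-fold higher. The median chosen spot held 0.5 UMIs of H2-Aa and the highest 15, so the class II signal was carried by a part of the spots.

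Chemokines that attract activated T cells were higher as well. Cxcl9, a ligand of CXCR3, had 40 UMIs in 17 chosen spots and 19 in 15 of the others, 18.6-fold (10.5 to 33.9). Ccl5, made by T and NK cells and by others, had 37 UMIs in 13 chosen spots and 14 in 8 of the others, 23.3-fold (12.3 to 46.7). The highest chosen spot alone held 14 of the 37, and 2 chosen spots exceeded the highest of the others, at 4. The interval does not cover such unevenness. Cxcl16 was 2.17-fold higher. The adhesion genes Vcam1 and Icam1 had ratios of 0.987 and 1.45 and were not called.

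The T and NK cell list had 48 UMIs in the chosen spots and 33 in the spots with 0, a ratio of 12.8 (8.07 to 20.6), although none of its 27 genes reached 20 UMIs. A single chosen spot held 13 of the 48, along with 26 UMIs of MHC class II, and the interval does not cover such unevenness. In spots, more cells of a type and more RNA per cell cannot be told apart. At least 1 such UMI was in 22 of 48 chosen spots (45.8%) and in 31 of 580 others (5.34%). With spots thinned to 2500 UMIs each, which left out 3 shallower spots of the 580, the shares were 12.5% of 48 and 1.73% of 577. Members with the most UMIs in the chosen spots included the T cell receptor constants Trbc2, with 8 UMIs against 3, Trbc1, with 5 against 0, and Trac, with 4 against 5, and the cytotoxic and NK genes Nkg7 (4 against 1), Gzma (4 against 2), Klrd1 (4 against 0) and Il2rb (4 against 0). Other members had 0 or 1 UMI in the chosen spots, Cd3d with 0 against 6, Cd247 with 1 against 5, Cd6 with 0 against 2 and Cd8a with 0 against 1. The pools held 457352 and 4033142 UMIs, so counts this small give no direction for single genes. Gzmb and Lck were at 0 in both pools. With spots chosen by 1 or more GTPase UMIs, the list ratio was 4.30 (2.74 to 6.84). Cd52, a surface protein of lymphocytes and other white cells, was 14.7-fold higher. The thymus list had 0 UMIs in the chosen spots and 17 in the others, with a ratio interval of 0 to 2.14 that includes 1.

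The chosen spots with and without a T or NK cell UMI differed in MHC genes more than in GTPases, a comparison made after the values were seen. In the 22 spots with one, H2-K1 ranged from 1 to 34 UMIs with a median of 22. In the 26 spots without, it ranged from 0 to 28 with a median of 4, so the ranges overlapped. Against the 580 spots, the class I list was 4.74-fold (4.51 to 4.99) and 2.44-fold (2.28 to 2.61) higher in the 2 kinds of chosen spot, and the class II list 28.4-fold (21.9 to 36.9) and 4.57-fold (2.84 to 7.09). The other GTPases were 15.7-fold (12.4 to 19.9) and 12.2-fold (9.46 to 15.6) higher. The highest spot with a T or NK cell UMI held 36 class II UMIs, beside a median of 4. Cxcl9 went the other way, at 13.2-fold (6.12 to 27.7) with and 23.8-fold (12.7 to 45.5) without, with intervals that overlap. Median depth was 12190 and 9224 UMIs, and the median count of the 5 GTPase genes was 10.5 and 7.5. The part of depth and of GTPase UMIs in these differences was not tested. A further 31 spots had a T or NK cell UMI and 0 UMIs of the 5 GTPase genes. Against all 580, their class I list was 1.195-fold (1.09 to 1.31), the class II list 1.89-fold (0.913 to 3.53) and the other GTPases 1.08-fold (0.509 to 2.05). These spots were selected for 0 GTPase UMIs, which by itself favours low levels of genes that go with them. What a T or NK cell UMI alone goes with was therefore not tested.

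The spots with the most GTPase UMIs were not alike. Of the 11 spots with 15 or more, 8 held from 11 to 32 H2-K1 UMIs, from 17 to 51 of H2-D1 and from 2 to 26 of MHC class II. The other 3 were those with 29, 24 and 22 GTPase UMIs, among the highest of all, yet they held 3, 1 and 1 H2-K1 UMIs, 1, 6 and 1 of H2-D1, at most 1 of class II and 0 of the T and NK cell list. Cxcl9 ranged from 3 to 8 UMIs in these 3 and from 0 to 4 in the 8. Their depth was lower, from 6526 to 8302 UMIs against 11375 to 15176, and as a share of UMIs their class I list still stood lower, from 25.8 to 36.8 per 10000 against 59.0 to 149.9. Over all 48 chosen spots, 24 held 10 or more H2-K1 UMIs, 9 held from 4 to 9 and 15 held from 0 to 3, and 6 of the 580 spots held 10 or more.

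**Figure D2:**
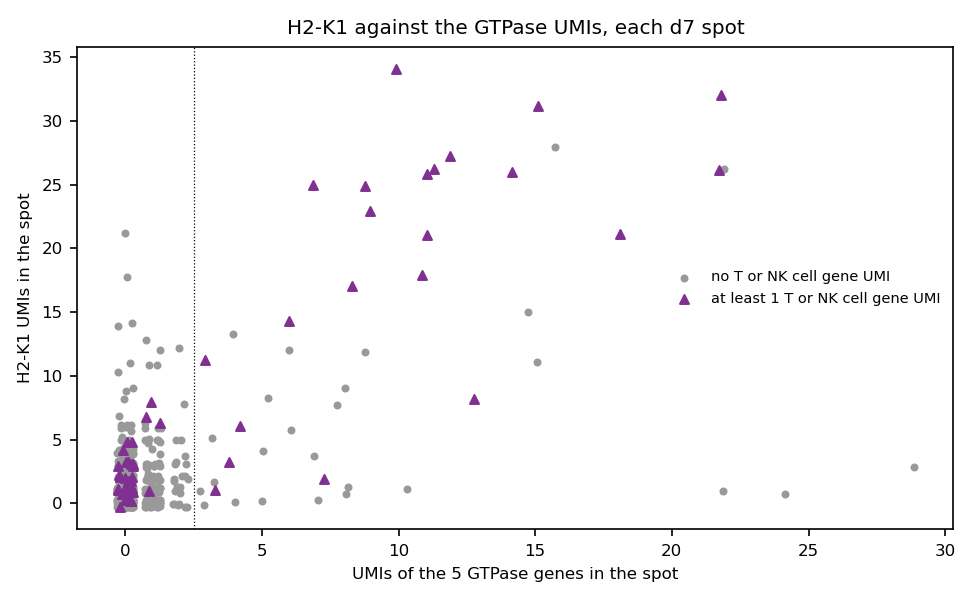
Each point is 1 spot of the d7 section, with its UMIs of the 5 GTPase genes on the horizontal axis and its H2-K1 UMIs on the vertical axis, moved slightly at random so that points can be seen. Triangles are spots with a T or NK cell UMI, the dotted line marks the threshold of 3, and the 3 spots with 22 to 29 GTPase UMIs and 1 to 3 H2-K1 UMIs lie at the lower right.

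Levels were highest in spots with 6 or more GTPase UMIs. In spots with 0, 1 to 2, 3 to 5, and 6 or more, H2-K1 stood at 180, 259, 455 and 1597 CPM. It was above the level of the spots with 0 already at 1 to 2 UMIs, with an interval of 229 to 291 CPM against 167 to 194. The class II list did not follow step by step: it stood at 24.6, 18.6, 50.6 and 523 CPM. The T and NK cell list stood at 8.18, 5.57, 42.2 and 126.9 CPM. Between 0 and 1 to 2 UMIs, both had ratios whose intervals included 1, 0.756 (0.443 to 1.23) and 0.680 (0.233 to 1.64). The 3 to 5 level rested on 13 spots and the highest on 35.

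**Figure D3:**
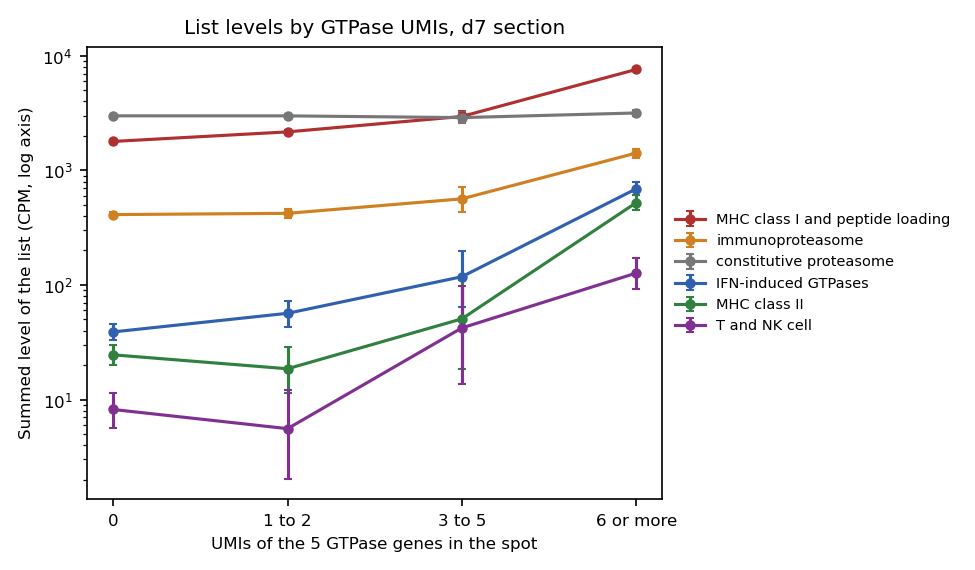
Summed CPM of 6 gene lists, on a log axis, in d7 spots grouped by their UMIs of the 5 GTPase genes, with 95% Poisson intervals. The constitutive proteasome stays between 2892 and 3174 CPM, while MHC class II and the T and NK cell list have overlapping intervals at 0 and 1 to 2 UMIs and reach 523 and 126.9 CPM at 6 or more.

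Macrophage genes were higher by less than the T and NK cell list. Of 12 measured macrophage genes, 4 were higher and 0 lower, and the list stood at 617 CPM against 294 CPM, 2.10-fold (1.84 to 2.39). The 4 were Lyz2, a lysozyme, at 2.32-fold, the signalling adaptors Tyrobp and Fcer1g at 2.44-fold and 3.12-fold, and Aif1 at 2.52-fold. The markers of resident heart macrophages Lyve1, Mrc1 and F13a1 had ratios of 0.410, 0.725 and 0.784, from 2, 6 and 4 UMIs, and were not called. In the complement list 4 of 11 were higher, C4b, C1s1, C1qa and C3, at 3.63-fold, 3.21-fold, 3.14-fold and 2.36-fold. Neutrophil and dendritic cell genes had none called of 2 and 2 measured. Their list ratios were 1.575 (0.844 to 2.75) and 0.991 (0.896 to 1.09), with intervals that include 1. The B cell and lymph node list was lower, with 12 UMIs against 313, a ratio of 0.338 (0.173 to 0.599). Ccl21a gave 3 and 251 of these.

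Genes of connective tissue were among those that were lower. In the matrix list 10 of 20 were lower and 0 higher, with a summed ratio of 0.629 (0.5998 to 0.6597). Postn, a matrix protein of activated fibroblasts, stood at 367 CPM against 926 CPM, a ratio of 0.397 (0.338 to 0.463), and Tnc at 0.179 and Cthrc1 at 0.114. Of 12 fibroblast genes 4 were lower, Tcf21, Pi16, Dpep1 and Mfap5. The atrial peptide gene Nppa had 19 UMIs against 2003, a ratio of 0.0837 (0.0503 to 0.131), and 1 of the 580 spots alone held 207 of them. Wfdc18 had 0 UMIs in the chosen spots and 259 in the others, within 37 spots, at least 9.79-fold lower by the floor of 3 counts. Sfrp2, a secreted Wnt-binding protein, Dpep1 and Col12a1, a fibril-associated collagen, each had 1 UMI in the chosen spots and were also among the 10 lowest ratios, as were Neurl1b, Ephb3, Smc3 and the lymphoid chemokine Ccl21a, at 3 UMIs against 251. With spots chosen by 1 or more GTPase UMIs, none of the 10 genes named for the lowest ratios was called lower. The range of the matrix share in the chosen spots, 17.6 to 93.7 per 10000, lay inside that of the others, 16.7 to 379.3.

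**Figure D4:**
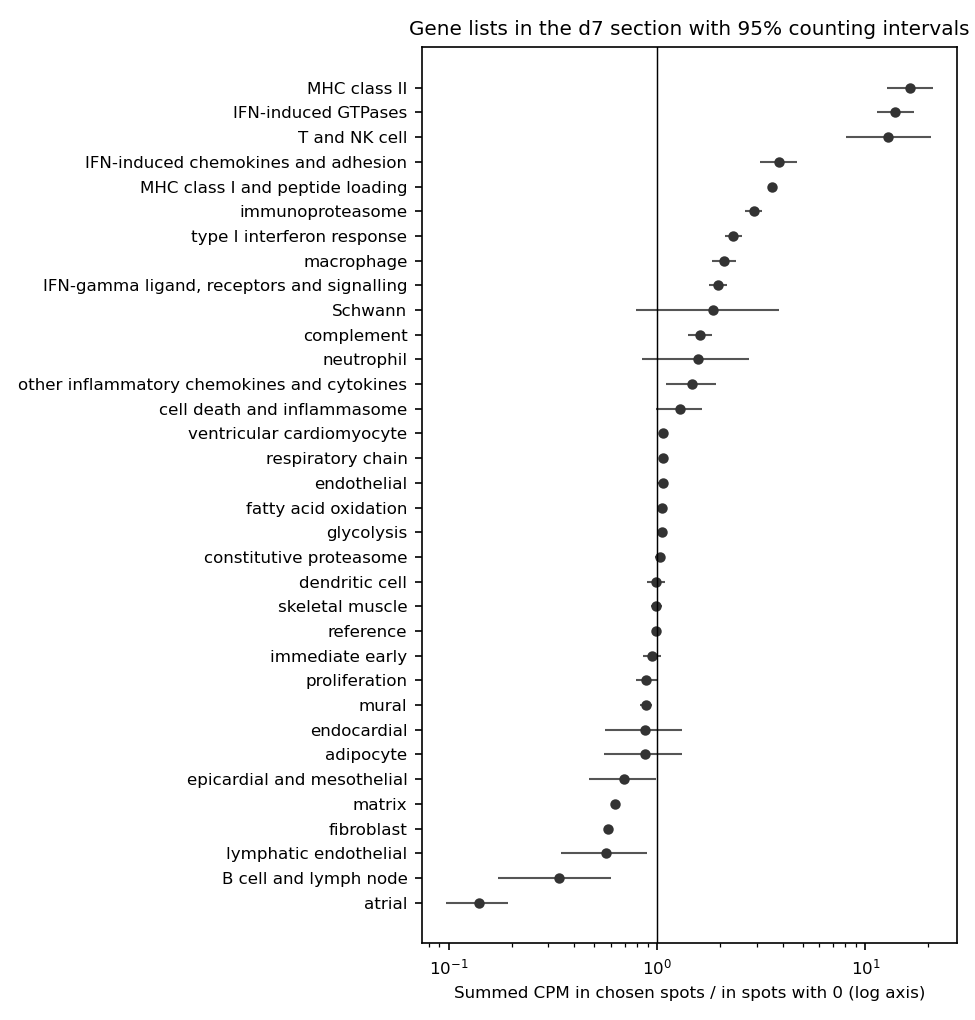
Ratio of the summed CPM of each gene list in the chosen spots to that in the spots with 0, on a log axis, with 95% counting intervals. Lists of MHC class II, GTPases and T and NK cells stand above 12, and the atrial list, at 0.139, stands lowest. The thymus list, with 0 UMIs in the chosen spots, and the lung list, with 1, are not drawn.

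Genes of ventricular muscle, energy metabolism and blood vessels differed little, while other muscle and vessel lists were lower in part. The ventricular cardiomyocyte list had a ratio of 1.07 (1.06 to 1.08), with 1 of 18 genes called, the fetal-type actin Acta1, which was lower at 0.484. Of 16 respiratory chain, 14 fatty acid oxidation, 16 glycolysis and 22 proliferation genes, 0 were called. In the endothelial list Ly6a and Ly6e were higher, at 2.57-fold and 2.08-fold, and Sox17, an arterial factor, was lower, at 0.263 from 2 UMIs, while the list's ratio was 1.06. Of 5 measured skeletal muscle genes 3 were lower, Mylpf, Acta1 and Myl1. The list ratio of 0.989 (0.931 to 1.05) mainly reflects Ckm, which is on the ventricular cardiomyocyte list too. Ckm gave 1167 of the list's 1207 UMIs in the chosen spots and 9889 of 10768 in the others. In the chosen spots 8 of the 12 listed genes had 0 UMIs. The lymphatic endothelial list had a ratio of 0.571 (0.344 to 0.897), with Prox1 lower, and the mural list 0.882 (0.826 to 0.942), with 0 of 12 called. Ly6a and Ly6e are themselves known interferon-induced genes.

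When the d7 spots were clustered without the interferon lists and the 5 GTPase genes, 38 of the 48 chosen spots (79.2%) fell in 1 cluster of 307 spots, which held 36.9% of the spots with 0. The genes leading that cluster, such as Lrtm1 and Efnb3, were at most 2.10-fold above the other spots, so it has no name here. A cluster led by the smooth muscle genes Myh11 and Tagln held 7 chosen spots, and a cluster of 54 spots led by Wfdc18, Osr1 and the skeletal muscle gene Myh3 held 0. Inside the large cluster the ratios were larger than over the section: 15.1 for the other GTPases, 4.62 for class I and 36.6 (22.5 to 63.2) for class II. In the smooth muscle cluster they were 9.94, 2.63 and 8.38 (3.71 to 18.6).

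The other sections held few such spots. The rule found 1 of 445 spots at d1, 1 of 662 at d4 and 6 of 1175 at d14, against 48 of 774 at d7 (6.20%, 4.61 to 8.14). None of the spots in the other sections held more than 3 UMIs of the 5 genes, whereas the highest at d7 held 29. Thinned to 2500 UMIs, which left out 40, 3, 3 and 131 shallower spots at d1, d4, d7 and d14, the shares were 0%, 0%, 2.98% and 0%. The share with at least 1 UMI after thinning was 11.8% at d7 and 12.8% (10.87 to 15.02) at d14, although the summed level was 117 CPM at d7 and 58.3 CPM at d14. At d14 the UMIs of these genes were spread over spots that held at most 3 each, and at d7 most were gathered in few spots. Age, time after injury and animal cannot be told apart here. The d7 section also had 460 UMIs of the Y-linked Eif2s3y where the other sections had 0. Xist, a transcript of female cells, had 1 UMI at d7 and 199, 341 and 158 at d1, d4 and d14. By these genes d7 was the only male section, so sex cannot be told apart from the day either.

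**Figure D5:**
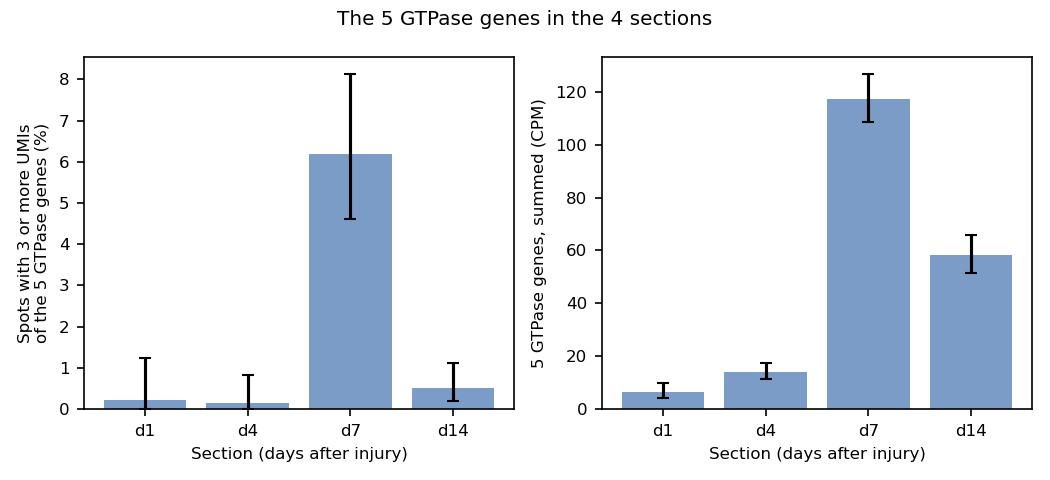
Share of spots with 3 or more UMIs of the 5 GTPase genes (left, exact 95% binomial intervals) and their summed level in CPM (right, 95% Poisson intervals) in the 4 sections. The d7 section stands at 6.20% of spots, with the other 3 at 0.511% or less, and d14 has the next highest level, 58.3 CPM.

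Spots with 1 or more GTPase UMIs at d14 were close to the d14 spots with 0 in levels of the genes that differed at d7. Against spots with 0, the class I list had a ratio of 1.03 (0.983 to 1.07) at d14 and 1.92 (1.85 to 1.99) at d7 with the same choice, and the other GTPases 0.968 (0.721 to 1.28) and 5.17 (4.25 to 6.31). Over all genes, 111 of 10567 (1.05%) were higher and 88 (0.833%) lower at d14, and 104 of 11201 (0.928%) were higher and 88 (0.786%) lower at d7. At d4 the same choice went with class II at 5.01 (3.71 to 6.76), the T and NK cell list at 4.33 (2.66 to 6.95), macrophage genes at 2.51 (2.25 to 2.79) and also matrix genes at 1.91 (1.86 to 1.95), while the matrix list had a ratio of 0.916 (0.894 to 0.938) at d7. Over all genes, 413 of 11607 (3.56%) were higher and 144 (1.24%) lower at d4. At d1, where 18 spots held such a UMI, 251 of 10017 (2.51%) were higher and 90 (0.898%) lower.

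The 48 spots made up a large part of the section's level of these genes. They held 8.31% of all d7 UMIs, but 65.6% of those of Irgm1, 67.0% of H2-Aa, 66.1% of Ccl5, 62.5% of Cxcl9, 37.2% of H2-K1 and 30.3% of B2m. H2-Aa without them stood at 7.04 CPM (4.93 to 9.75), against 19.6 with them, 5.99 (4.17 to 8.33) at d4 and 56.2 at d14. H2-K1 stood at 196.6 CPM without them, still between 109.5 at d4 and 360.1 at d14.

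The response element core was in 20 of the 150 promoter windows (13.3%) of the 161 higher genes, and the gamma-activated site core in 13 (8.67%). The response element core was in 10 of 29 windows (34.5%) of the 37 genes at least 5-fold higher, of which 26 had a window, in 2.80% of the windows of measured genes, in 2.82% of those of the lower genes and in 3.44% of all windows. The gamma-activated site core was in 5 of the 29 (17.2%), in 6.46% for measured genes, in 7.66% for the lower genes and in 8.30% of all windows. No match was found within these windows for Cxcl9, Psmb9 and Tap1.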

How the data were processed

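The authors deposited raw UMI counts per gene and spot for 4 Visium sections, made with Space Ranger 1.3.0 on mm10 per the submitters' processing notes, which also name Seurat 4.1.1 without a role. Spots with at least 500 UMIs were kept, with median depths of 7810 (d1), 7998 (d4), 8028 (d7) and 3770 (d14) UMIs. The sections share 248 to 754 spot barcodes, since arrays use a common set.

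UMIs were pooled over spots and divided by totals without 8 haemoglobin and 13 mitochondrially encoded genes. Ratios carry exact conditional binomial, levels exact Poisson and shares Clopper-Pearson 95% intervals, which cover counting error only. No test was possible with 1 section per time point. Comparisons were tested on simulated pools with counting error only, so unevenness among spots and the choice of spots were not covered. Clusters used scanpy 1.11.5 (Leiden, resolution 0.8, 15 components, 15 neighbours, 2000 genes), and TMM scaling used edgeR 4.0.16.

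Named genes were the 15 highest and 10 lowest ratios reaching 20 CPM, without predicted, ribosomal, haemoglobin, mitochondrial and sex-linked genes, plus the most counted members of each list (8 for interferon lists, 4 for others) and the signalling list. Other list members and the split by T and NK cell UMIs were chosen after their values were seen. The members and lists were chosen with earlier results of these data known. Alternatives changed scaling, spot filter, threshold, comparison spots, gene minimum, depth and left-out spots. Protein sequences were not used here, and 1 gene is not reported here.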

Additional observations from a re-analysis of the deposited data

How the results depend on the processing

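The list ratios, the counts of higher and lower genes, and the calls of genes named for the highest and lowest ratios were recomputed under 23 alternatives. The T and NK cell, thymus, and B cell and lymph node lists had 22. Of the 23, 3 were added after the data were seen (1 or more GTPase UMIs, without the cluster holding most chosen spots, and without spots holding 15 or more GTPase UMIs). In all 23, Irgm1, H2-Ab1, Cxcl9, Psmb9, Gbp2, Psmb8 and H2-T23 were called higher. Without spots holding a lymphoid UMI, which left 22 chosen spots, Nlrc5, H2-Q6, Ccl5, H2-Aa, Cd74, Cd52 and Serpina3g lost the call. All of these but H2-Aa also lost it without the main cluster, and H2-Q6 in 5 further alternatives, among them spots within 1 range of depth. At 1 or more GTPase UMIs, the 10 genes named as lowest lost their call, and Sfrp2, Dpep1, Col12a1, Wfdc18, Ccl21a and Cthrc1 lost it in 4 alternatives each. Ratios for the lists in the order other GTPases, signalling, type I, class I, immunoproteasome, class II and chemokines were as follows. They were 10.3, 1.67, 1.999, 2.90, 2.39, 11.7 and 3.07 at 2 or more GTPase UMIs, and 5.17, 1.35, 1.5, 1.92, 1.59, 5.39 and 1.97 at 1 or more. Without lymphoid spots, GTPases were at 10.9, type I at 2.06, class I at 2.54, immunoproteasome at 2.41 and class II at 6.26. Without the main cluster, which left 10 chosen spots, signalling was at 1.70, type I at 2.75, class I at 2.33 and class II at 5.69. Without the spots with 15 or more, they were 10.7, 1.75, 1.90, 3.21 and 2.53 up to the immunoproteasome, and 2.81 for chemokines. At 5 or more UMIs class I was 3.98 and immunoproteasome 3.26; chosen without Igtp, 4.01 and 3.22. Class I was 3.76 chosen without Iigp1, 3.42 against spots with 0 to 2, 3.77 without skeletal muscle spots and 3.88 without the most matrix-rich spots. Chemokines were 4.74 with both pools held to 7352 to 15062.6 UMIs per spot, where median depths still differed, at 11339.5 and 8987. The direction turned for fatty acid oxidation without lymphoid spots (0.997), and for lymphatic endothelial (1.13) and mural genes (1.11) without the main cluster; the cause was not tested. Higher genes numbered 93 with 50 or more UMIs per gene, where fewer genes were tested, and 104 at 1 or more GTPase UMIs. Lower genes numbered 119 without lymphoid spots, 88 at 1 or more and 85 without the main cluster. Of all calls, 38.4% were higher as reported, 54.4% without lymphoid spots, 54.2% at 1 or more and 65.3% without the main cluster, where the median log2 ratio was 0.19. At Leiden resolution 1.2, the cluster with most chosen spots was smaller, at 86 spots, and held 60.4% of the chosen spots and 7.41% of the spots with 0. Thinned to 2500 UMIs, the share of spots with 3 or more was 0% at d1, d4 and d14 and 2.98% at d7. No paired analysis was possible because each time point had 1 section, and no replicate could be left out.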
